A study of Mus musculus with 6 samples.

Results

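The genes described here are the SNAREs, the proteins that fuse secretory granules with the cell membrane, and the docking factors that act with them. They were taken as every row whose symbol is Stx, Stxbp, Vamp, Snap or Sytl, a number, and then nothing or a single letter. Rows named Unc13a to Unc13d, Nsf, Napa, Napb or Napg were also taken. All these genes number 47 of 24346 symbols in the tables. RNA was measured in 3 platelet libraries from mice homozygous for Beta3(R734C), a missense knock-in in the cytoplasmic part of integrin β3, and in 3 platelet libraries from wild-type mice. The labels call the cells thrombocytes from blood, and give no age, sex, strain background or number of animals per library. They do not say whether the libraries of a genotype came from separate animals, so p-values measure the spread between libraries, which may be technical. The study compared the genotypes to learn which platelet mRNAs change with the β3 mutation.

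SNARE proteins are the fusion machinery of platelet granules. A vesicle SNARE of the R type pairs with target SNAREs of the Qa, Qb and Qc types, and the helical bundle they form pulls the membranes together. Syntaxin-binding proteins of the Sec1/Munc18 (SM) class and Munc13 proteins prepare the syntaxin, Rab27 effectors tether the granule, and NSF with its SNAP adaptors takes spent complexes apart. In platelets this machinery releases the contents of alpha granules, dense granules and lysosomes, and inherited loss of STX11, STXBP2 or UNC13D in humans causes familial haemophagocytic lymphohistiocytosis with a platelet secretion defect.

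Platelet markers were detected in full, 12 of 12 with a mean of at least 1 FPKM (fragments relative to transcript length and library size), and summed to 52567 to 58539.5 FPKM in knock-in and 55656 to 58030.4 FPKM in wild-type libraries. Of the 12, Tubb1 at 3558 to 3900 FPKM in knock-in and 6147 to 6974 FPKM in wild-type libraries (limma adjusted p = 0.00759) and Gp1ba (adjusted p = 0.0139) were lower, and Nrgn (adjusted p = 0.0168) was higher in the knock-in. Erythroid markers summed to 24542 to 178205 FPKM in knock-in and 37401 to 92494 FPKM in wild-type libraries, with the highest sum of each genotype in its library 1. Of 11 neutrophil markers 0 reached a mean of 1 FPKM. Of 12 T and NK cell markers only Nkg7 did, at 6.37, 8.83 and 4.68 FPKM in knock-in and 4.42, 3.87 and 2.67 FPKM in wild-type libraries (limma adjusted p = 0.151), while Cd3e, Cd3d, Gzma, Prf1, Ncr1, Klrb1c and Cd4 were listed at 0 in all 6 libraries. The 12 markers together summed to 5.68 to 8.83 FPKM in knock-in and 2.67 to 4.42 FPKM in wild-type libraries, and their part in the results on Stx11, Stxbp2 and Unc13d, which T and NK cells also use, was not tested. Of 8 monocyte markers Lyz2 and Cd14 did. Lyz2 stood at 7205 to 9127 FPKM in knock-in and 7033 to 8240 FPKM in wild-type libraries, beside Csf1r at 0.725 FPKM or less, and the 6 B cell markers in the tables, all with means under 1 FPKM, summed to 0.196 to 0.693 FPKM in knock-in and 0 to 0.185 FPKM in wild-type libraries. The tables hold no read counts, so the depth behind a value is unknown.

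Of the 47 genes, 25 had a mean of at least 1 FPKM over the 6 libraries and were tested. Syntaxin 11, syntaxin 2 and the Rab27 effector Sytl4 were lower in knock-in platelets, and 0 members were higher, at a limma adjusted p under 0.05. The 3 calls are 12% of the tested members, against 8.36% of all 4859 genes tested. In the lower direction the background is 3.99%, and in the higher direction, with 0 members, it is 4.36%. All 3 lie among the 14 members with a mean of at least 10 FPKM, where 21.4% were called lower against 8.44% of the 2015 genes at that level. Called higher at that level were 0 of the 14 members and 9.08% of all genes. With only genes of a mean of at least 5 FPKM tested, 3 of 18 members and 253 of 2750 genes were called lower. Higher were 0 of those 18 and 258 of the 2750. The median log2 fold change was -0.22 over the 25 members and -0.01 over all tested genes. The members' median was 0.010 over those with a mean of at least 5 FPKM, -0.056 with no filter on low values, and -0.14 to -0.12 without knock-in library 1 or 2 or wild-type library 3. It was -0.10 over the 14 abundant members, 7 of which had higher and 7 lower estimates. No member was 2-fold apart by group mean of FPKM + 1, the limit that the design text names, which 3.11% of all tested genes reached. These libraries are bulk RNA, in which a smaller number of platelets of some kind and less RNA per platelet cannot be told apart.

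Without knock-in library 2 or 3, or wild-type library 2 or 3, 0 of the 3 genes passed, at an adjusted p of 0.0593 to 0.0747 for Stx2, 0.0563 to 0.0631 for Sytl4 and 0.0748 to 0.133 for Stx11. Of all 4859 genes 43, 0, 15 and 44 were called lower in those settings, in that order, against 194 with all libraries. Without limma's variance trend 0 of all 4859 genes passed (1197 at an unadjusted p under 0.05), with an adjusted p of 0.0656 for Stx2, 0.0813 for Sytl4 and 0.152 for Stx11. Without library 1 of both genotypes, those with the highest erythroid sums, 333 of all 4859 genes were called lower. All 3 members passed there, with log2 fold changes of -0.61 for Stx2, -0.48 for Sytl4 and -0.30 for Stx11. Each kept its negative sign in 16 of 16 other settings.

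**Figure D1:**
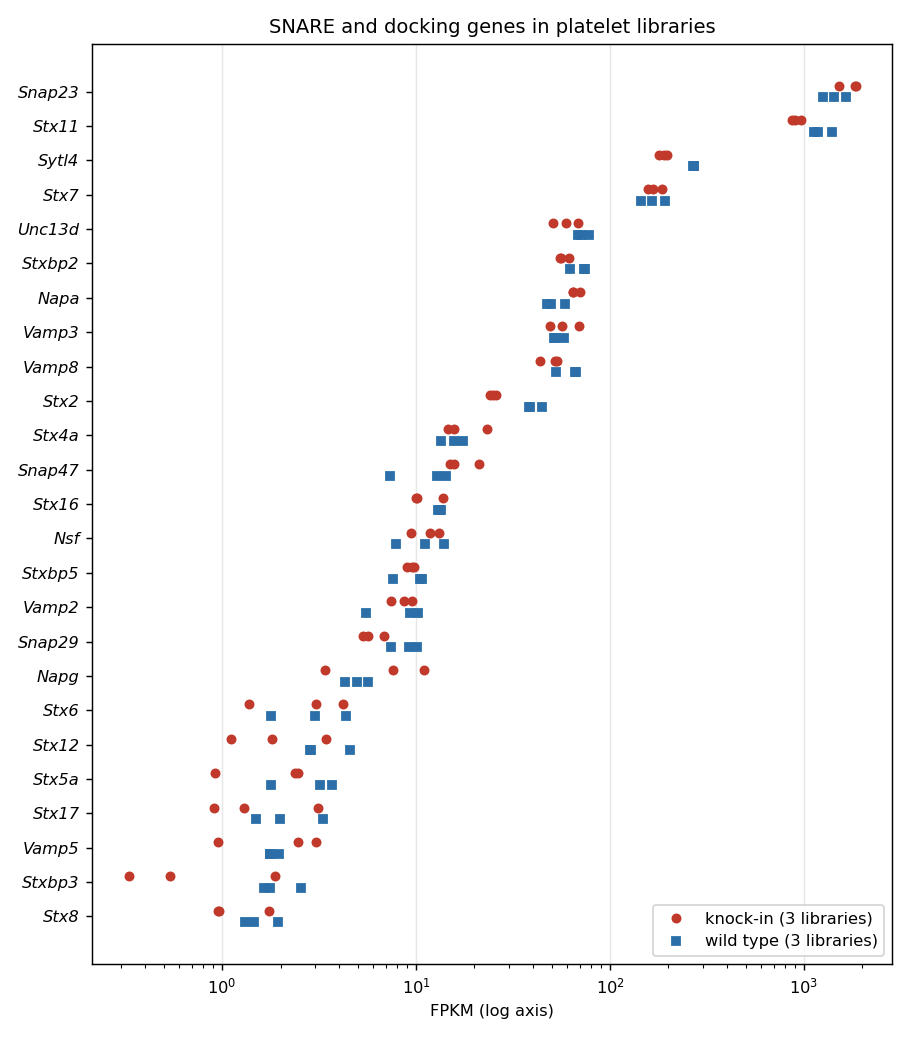
FPKM of the 25 tested members on a log axis, with 1 point per library, knock-in as red circles above wild type as blue squares. Snap23 and Stx11 stand at the top, and the knock-in points of Stx11, Sytl4 and Stx2 all lie left of the wild-type points.

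A single target SNARE pair dominated the members by level. Snap23 ranked 64 and Stx11 ranked 94 by mean FPKM among all 24346 symbols. Together they made up 76.8%, 78.0% and 77.0% of the summed FPKM of the 47 members in knock-in libraries, and 77.5%, 73.3% and 74.0% in wild-type libraries. The next members were Sytl4, with rank 334, and Stx7, with rank 398. Unc13d, Stxbp2, Napa, Vamp3 and Vamp8 followed at mean levels of 55.7 to 65.8 FPKM. All 47 members summed to 3100, 3528 and 3640 FPKM in knock-in and 3934, 3328 and 3452 FPKM in wild-type libraries, and these ranges overlap. As a share of the total FPKM of each library they came to 0.362%, 0.465% and 0.467% in knock-in libraries and 0.555%, 0.519% and 0.536% in wild-type libraries. The total was itself larger in the knock-in, at 758381 to 856863 FPKM in knock-in against 641278 to 708432 FPKM in wild-type libraries, and its part in that share was not tested.

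In the Snap, Unc13 and Sytl families 1 paralog supplied nearly all of the RNA. Snap23 made up 98.6% to 98.9% of the Snap family's FPKM in knock-in and 98.1% to 99.1% in wild-type libraries. Unc13d held 99.1% to 99.8% of the Unc13 family in knock-in and 98.9% to 99.8% in wild-type libraries. Sytl4 held 99.9% or more of the Sytl family in the knock-in and 99.9% in the wild type. Other families were less one-sided. Stxbp2 held 82.1% to 85.1% of the Stxbp family in knock-in and 83.7% to 85.2% in wild-type libraries. Napa held 75.5% to 83.6% of the FPKM of Nsf and the Nap genes in knock-in and 72.5% to 79.1% in wild-type libraries, and Stx11 led the syntaxins with 79.1% to 79.9% in knock-in and 81.8% to 83.9% in wild-type libraries. Among the vesicle SNAREs Vamp3 and Vamp8 were near each other.

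The Qa-SNAREs, or syntaxins proper, anchor the complex on the target membrane. Of 13, 8 were tested, 2 were called lower and 0 higher, against 3.99% lower and 4.36% higher over all genes. Both called genes have a mean of at least 10 FPKM, a level at which those shares were 8.44% and 9.08%. Of the 8 estimates 6 were negative, as were 2503 of the 4859 over all genes. Syntaxin 11, an acylated syntaxin without a transmembrane segment that is needed for platelet and cytotoxic granule release, was by far the most abundant. Stx11 measured 867, 898 and 969.6 FPKM in knock-in libraries, against 1401, 1179 and 1119.6 FPKM in wild-type libraries. The highest knock-in library lay below the lowest wild-type library. The mean was 912 ± 52.5 FPKM in knock-in and 1233 ± 148 FPKM in wild-type libraries (SD, n = 3 each), a log2 fold change of -0.43 (SE 0.10, limma adjusted p = 0.0409), or 1.35-fold lower. The call was also lost without wild-type library 1 (adjusted p = 0.0710), with no filter on low values (0.131), with a replicate block (0.0679) and once a trend with exonic length was removed (0.0776). Across its 16 other settings the adjusted p ran between 0.0243 and 0.152. The gene lies at chr10:12938209-12964298 of GRCm38, minus strand. The exons of Stx11 span 4209 bases, those of Stx2 4586 and those of Sytl4 5125, against a median of 4042.5 over all tested genes with a length. Longer genes tended to have lower log2 fold changes (Spearman correlation -0.171 across 4694 genes, which are not independent). With the length trend removed the log2 fold changes were -0.38 for Stx11, -0.63 for Stx2 and -0.46 for Sytl4.

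Syntaxin 2, a plasma membrane syntaxin found on platelet membranes and granules, showed the largest fall of the 3. Stx2 measured 25.0, 25.7 and 24.0 FPKM in knock-in libraries, against 44.6, 38.2 and 38.9 FPKM in wild-type libraries. The groups are wide apart, and the knock-in libraries differ little from each other. The mean was 24.9 ± 0.857 FPKM in knock-in and 40.6 ± 3.50 FPKM in wild-type libraries (SD, n = 3 each), a log2 fold change of -0.68 (SE 0.13, limma adjusted p = 0.0165), or 1.60-fold lower. The gene lies at chr5:128984557-129008574, minus strand. Syntaxin 4, the other plasma membrane syntaxin at a comparable level, did not pass. Stx4a measured 14.7, 15.7 and 23.2 FPKM in knock-in and 13.4, 15.7 and 17.5 FPKM in wild-type libraries, with a log2 fold change of 0.17 and a 95% interval of -0.30 to 0.64. The intervals of Stx2 and Stx4a do not overlap, though the difference between the genes was not tested.

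Syntaxin 7, of late endosomes and lysosomes, was the second syntaxin by level. Stx7 measured 156, 167 and 185 FPKM in knock-in and 192, 144 and 165 FPKM in wild-type libraries. The wild-type values enclose the knock-in values, and the log2 fold change of 0.03 has a 95% interval of -0.26 to 0.32. Syntaxin 16, of the trans-Golgi network, was at 9.97 to 13.8 FPKM in knock-in and 12.9 to 13.5 FPKM in wild-type libraries, with a log2 fold change of -0.22 (95% interval -0.63 to 0.18). The remaining tested Qa members were low. Stx12, of recycling endosomes, lay at 1.11 to 3.44 FPKM in knock-in and 2.85 to 4.56 FPKM in wild-type libraries. Stx5a, of the ER to Golgi route, lay at 0.924 to 2.45 FPKM in knock-in and 1.78 to 3.70 FPKM in wild-type libraries. Stx17, of autophagosomes, lay at 0.909 to 3.11 FPKM in knock-in and 1.5 to 3.32 FPKM in wild-type libraries. The ranges of all 3 overlap, and their log2 fold changes of -0.55, -0.43 and -0.28 have 95% intervals that include 0.

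The level of Stx11 was also expressed within each library, where no scaling between libraries enters. Stx11 made up 79.7%, 79.9% and 79.1% of the summed syntaxin FPKM in knock-in and 83.5%, 83.9% and 81.8% in wild-type libraries. The groups do not overlap, and the exact two-sided permutation p of 0.1 is the smallest that 3 against 3 libraries allow. Stx11 is most of the syntaxin sum, so its share and its level are not independent. The Sytl4 share of its family did not overlap either (exact two-sided permutation p = 0.1). That share was higher in the knock-in, with a mean of 99.95% against 99.91% in the wild type. The top shares of the other families overlapped. The ratio of Stx11 to Snap23 FPKM, chosen after the values were seen and given as a description with no test, was 0.573, 0.485 and 0.529 in knock-in and 0.850, 0.936 and 0.780 in wild-type libraries. Its mean was 0.529 ± 0.0443 in the knock-in and 0.855 ± 0.0779 in the wild type (SD, n = 3 each). The ratio does not say which of the mRNAs differed. Without library 1 of both genotypes it differed by -0.35, against -0.33 with all libraries.

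**Figure D2:**
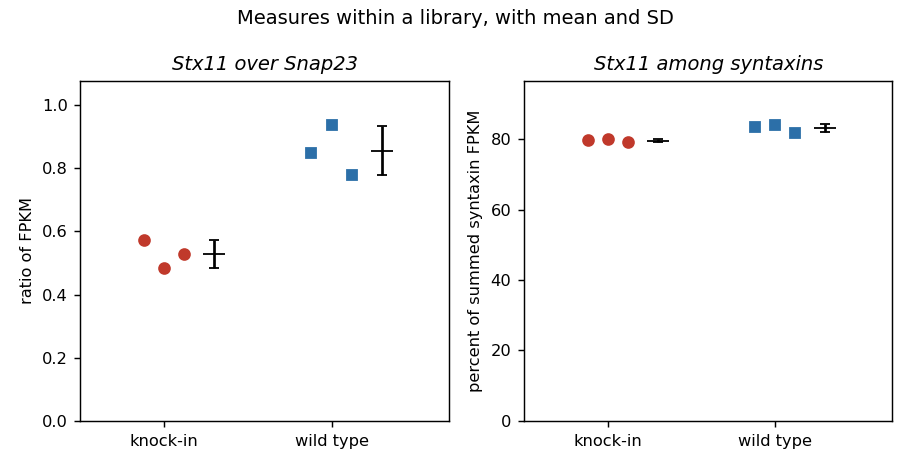
Left, the ratio of Stx11 to Snap23 FPKM in each library; right, the percent of summed syntaxin FPKM that Stx11 makes up. Points are libraries, bars are the mean with SD, and the 3 knock-in libraries lie below the 3 wild-type libraries in both panels.

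The sequences upstream of the transcription starts are shown for the 3 genes that fell, since they moved in the same direction, and for Snap23, their abundant partner that did not pass. They come from RefSeq, build GRCm38.p6, are written 5′ to 3′ on the strand of the gene, and end just before the first annotated base of RefSeq or GENCODE. Capitals mark GATA and GGAA, the cores that megakaryocyte GATA and ETS factors bind, on either strand (TATC and TTCC in reverse).
Stx11, chr10:12964299-12964509, minus strand: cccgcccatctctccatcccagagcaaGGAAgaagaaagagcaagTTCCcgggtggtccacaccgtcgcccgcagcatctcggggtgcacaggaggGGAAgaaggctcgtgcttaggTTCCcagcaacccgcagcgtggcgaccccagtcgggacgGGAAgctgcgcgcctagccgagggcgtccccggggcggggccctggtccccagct
Stx2, chr5:129008575-129008822, minus strand: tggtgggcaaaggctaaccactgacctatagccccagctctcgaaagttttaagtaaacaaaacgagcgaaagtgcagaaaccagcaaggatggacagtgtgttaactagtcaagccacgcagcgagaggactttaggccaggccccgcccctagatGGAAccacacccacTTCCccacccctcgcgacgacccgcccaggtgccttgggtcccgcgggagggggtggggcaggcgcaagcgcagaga
Sytl4, chrX:133981813-133982062, minus strand: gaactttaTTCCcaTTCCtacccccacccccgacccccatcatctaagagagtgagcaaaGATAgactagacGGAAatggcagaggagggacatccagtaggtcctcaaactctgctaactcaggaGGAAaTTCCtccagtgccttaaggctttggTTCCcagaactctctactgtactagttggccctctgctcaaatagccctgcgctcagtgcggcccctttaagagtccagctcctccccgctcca
Snap23, chr2:120567421-120567670, plus strand: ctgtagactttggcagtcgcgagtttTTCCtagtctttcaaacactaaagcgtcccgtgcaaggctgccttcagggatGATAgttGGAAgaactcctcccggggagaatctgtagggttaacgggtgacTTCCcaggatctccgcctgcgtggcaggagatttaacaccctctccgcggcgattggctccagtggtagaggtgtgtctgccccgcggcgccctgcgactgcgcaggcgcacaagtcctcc
GGAA occurs 5 times in the Stx11 window, 2 times in that of Stx2, 6 times in that of Sytl4 and 3 times in that of Snap23. GATA occurs 1 time each in the Sytl4 and Snap23 windows and 0 times in the other two. Such short cores are common, and among 32851 mouse promoters 93.4% held GGAA and 53.6% held GATA in the 250 bases before the start. The longer forms AGATAA and CGGAAG, on either strand, were in 9.99% and 13.6% of all promoters. AGATAA was in 0 of the 25 listed promoters of 21 tested members, and CGGAAG was in those of Stx4a, Stx6 and Stxbp3. Some listed windows are shorter than 250 bases, such as 96 for Stxbp2, 128 for Napa and 211 for Stx11, and those of Stx7 overlap. Counts in the listed windows are therefore not measured like the shares over all promoters. A second RefSeq start of Stx2 is not shown.

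The Qbc-SNAREs give both remaining target helices in a single protein. Of 4 genes 3 were tested and 0 were called, against 8.36% called in either direction over all tested genes. SNAP-23, the form outside neurons that pairs with syntaxin 11 in platelets, is the most abundant of all 47 members. Snap23 measured 1513, 1854 and 1833 FPKM in knock-in libraries, against 1649, 1259.5 and 1435 FPKM in wild-type libraries. Wild-type library 1 lies above knock-in library 1, so the groups overlap. The mean was 1733 ± 191 FPKM in knock-in and 1448 ± 195 FPKM in wild-type libraries (SD, n = 3 each), a log2 fold change of 0.26 (95% interval -0.02 to 0.55, limma adjusted p = 0.231). The estimate was 0.17 without wild-type library 2 and 0.16 with quantile normalization. Without library 1 of both genotypes, the libraries with the highest erythroid sums, the log2 fold change was 0.46 and passed (adjusted p = 0.0102). This was the single new call among the members in any setting tried.

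SNAP-29, which pairs with syntaxin 17 on autophagosomes, measured 6.86, 5.62 and 5.31 FPKM in knock-in and 7.41, 10.1 and 9.17 FPKM in wild-type libraries. These values do not overlap, and the log2 fold change of -0.51 did not pass (95% interval -0.96 to -0.06, limma adjusted p = 0.151). The SNAP-47 gene Snap47 had a positive estimate, at 15.0, 15.6 and 21.05 FPKM in knock-in and 7.38, 14.3 and 12.8 FPKM in wild-type libraries. Its log2 fold change of 0.58 had a 95% interval of -0.0033 to 1.16 and did not pass either (adjusted p = 0.199). The estimate for Snap47 was 0.31 without wild-type library 1. Both genes share exonic bases with a gene on the other strand, 60 with Pi4ka for Snap29 and 307 with Jmjd4 for Snap47. The Qc-SNAREs Stx6, of the trans-Golgi network and endosomes, and Stx8, of late endosomes, were tested at low levels. Stx6 was at 1.38 to 4.18 FPKM in knock-in and 1.80 to 4.38 FPKM in wild-type libraries, and Stx8 at 0.958 to 1.74 FPKM in knock-in and 1.31 to 1.93 FPKM in wild-type libraries. Neither passed, with log2 fold changes of -0.09 and -0.22.

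The R-SNAREs sit on the granule. Of 7 genes 4 were tested and 0 were called, where 8.36% of all tested genes were called in either direction. VAMP-8 is the main vesicle SNARE of mouse platelet secretion, and VAMP-3, or cellubrevin, also serves endocytic uptake. Vamp8 measured 43.4, 51.9 and 53.0 FPKM in knock-in and 52.3, 67.0 and 66.3 FPKM in wild-type libraries, and only knock-in library 3 exceeded the lowest wild-type value. The log2 fold change of -0.31 did not pass (95% interval -0.64 to 0.01, limma adjusted p = 0.216). Vamp3 measured 48.9, 56.3 and 69.2 FPKM in knock-in and 57.9, 52.0 and 51.6 FPKM in wild-type libraries, a log2 fold change of 0.10 with an interval of -0.24 to 0.43. Vamp3 made up 47.8%, 46.6% and 52.3% of the summed VAMP FPKM in knock-in and 49.2%, 40.0% and 39.7% in wild-type libraries. Those shares overlap through wild-type library 1 (exact two-sided permutation p = 0.3). The neuronal form Vamp2 was at 7.39 to 9.52 FPKM in knock-in and 5.51 to 10.2 FPKM in wild-type libraries. Vamp5, known from muscle, was at 0.955 to 3.03 FPKM in knock-in and 1.76 to 1.96 FPKM in wild-type libraries.

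**Figure D3:**
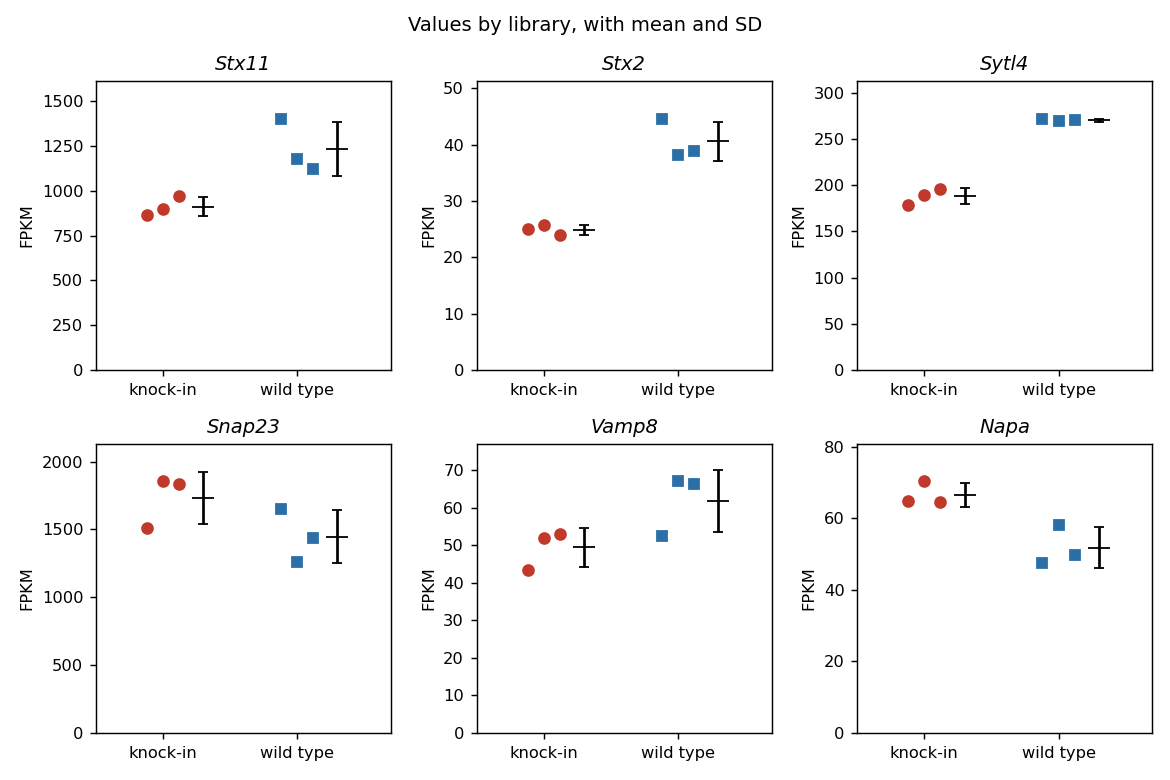
FPKM of Stx11, Stx2, Sytl4, Snap23, Vamp8 and Napa by library, on linear axes from 0, with the mean and SD beside the 3 points of each genotype. The knock-in points of the upper 3 genes lie below all wild-type points, those of Napa lie above, and those of Snap23 and Vamp8 overlap the wild type.

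SM proteins, priming factors and tethers act before fusion. Munc18-2, the product of Stxbp2, binds and stabilises syntaxin 11, and Munc13-4, the product of Unc13d, is a Rab27 effector that primes granules. Stxbp2 measured 56.0, 55.1 and 61.3 FPKM in knock-in and 62.2, 73.7 and 74.0 FPKM in wild-type libraries. Unc13d measured 50.6, 59.1 and 68.1 FPKM in knock-in and 68.3, 77.7 and 70.8 FPKM in wild-type libraries. Both had groups that did not overlap, by margins of under 1 FPKM. Their log2 fold changes were -0.28 (95% interval -0.55 to -0.0033, limma adjusted p = 0.191) and -0.29 (-0.60 to 0.02, adjusted p = 0.227), and neither passed. The estimate for Unc13d was -0.18 without knock-in library 1. Stxbp3, for Munc18-3, the SM partner of syntaxin 4, was at 1.87, 0.330 and 0.537 FPKM in knock-in and 1.65, 2.55 and 1.76 FPKM in wild-type libraries. It had the most negative estimate of all members, -0.71, with an interval of -1.5 to 0.07. Whether reads were shared with its pseudogene copy Stxbp3-ps was not tested. Tomosyn 1, which Stxbp5 encodes and which holds syntaxins but is required for normal platelet secretion in mice, was at 8.97 to 9.75 FPKM in knock-in and 7.61 to 10.7 FPKM in wild-type libraries. The log2 fold change of Stxbp5 was -0.01, with an interval of -0.44 to 0.42.

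Sytl4 encodes granuphilin, or Slp4, which links Rab27 on the granule to syntaxins and SM proteins at the plasma membrane. It was the most abundant docking factor and the most uniform member in the wild type. Sytl4 measured 178, 189.8 and 196 FPKM in knock-in libraries, against 272, 269 and 270.0 FPKM in wild-type libraries. The 3 wild-type values were within 3 FPKM of each other, and every knock-in value lay over 70 FPKM below them. The mean was 188 ± 8.87 FPKM in knock-in and 270.2 ± 1.49 FPKM in wild-type libraries (SD, n = 3 each), a log2 fold change of -0.52 (SE 0.09, limma adjusted p = 0.0122), or 1.44-fold lower. The gene lies at chrX:133936385-133981812, minus strand. Rab27b, its GTPase partner and the main Rab27 of these platelets, measured 88.1, 91.8 and 87.4 FPKM in knock-in and 129, 104 and 99.6 FPKM in wild-type libraries. The groups did not overlap, and the log2 fold change of -0.30 did not pass (95% interval -0.58 to -0.03, adjusted p = 0.163).

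NSF and the SNAP adaptors disassemble SNARE complexes for reuse. Of 4 genes 3 were tested, all with positive estimates and 0 called, where 2356 of the 4859 estimates over all genes were positive. Calls in either direction made up 8.36% of all tested genes. The estimate for Nsf turned negative without knock-in library 3 (-0.024) or wild-type library 1 (-0.12). Napa, for α-SNAP, measured 64.8, 70.3 and 64.6 FPKM in knock-in libraries, against 47.4, 58.3 and 49.7 FPKM in wild-type libraries. All knock-in values exceeded all wild-type values. The mean was 66.6 ± 3.26 FPKM in knock-in and 51.8 ± 5.74 FPKM in wild-type libraries (SD, n = 3 each), and the log2 fold change of 0.36 had a 95% interval of 0.08 to 0.64 but did not pass over all genes (limma adjusted p = 0.108). The ATPase gene Nsf was at 9.36, 11.8 and 13.2 FPKM in knock-in and 7.91, 11.1 and 13.9 FPKM in wild-type libraries, a log2 fold change of 0.08 (-0.45 to 0.60). Napg, for γ-SNAP, was uneven in the knock-in, at 3.38, 11.0 and 7.63 FPKM, against 5.64, 4.30 and 4.93 FPKM in the wild type.

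Counted over all tested members, groups did not overlap in 8 of 25 genes (Stx11, Stx2, Sytl4, Napa, Unc13d, Stxbp2, Snap29 and Snap47), which is 32.0%, near the 30.7% of all tested genes. The tests were most precise for abundant members. The median SE of the log2 fold change was 0.13 over the 14 members with a mean of at least 10 FPKM, and 0.32 over the 11 below it. The median coefficient of variation of those 14 was 10.8% in knock-in and 11.6% in wild-type libraries, and that of the other 11 was 49.0% in knock-in and 24.7% in wild-type libraries.

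**Figure D4:**
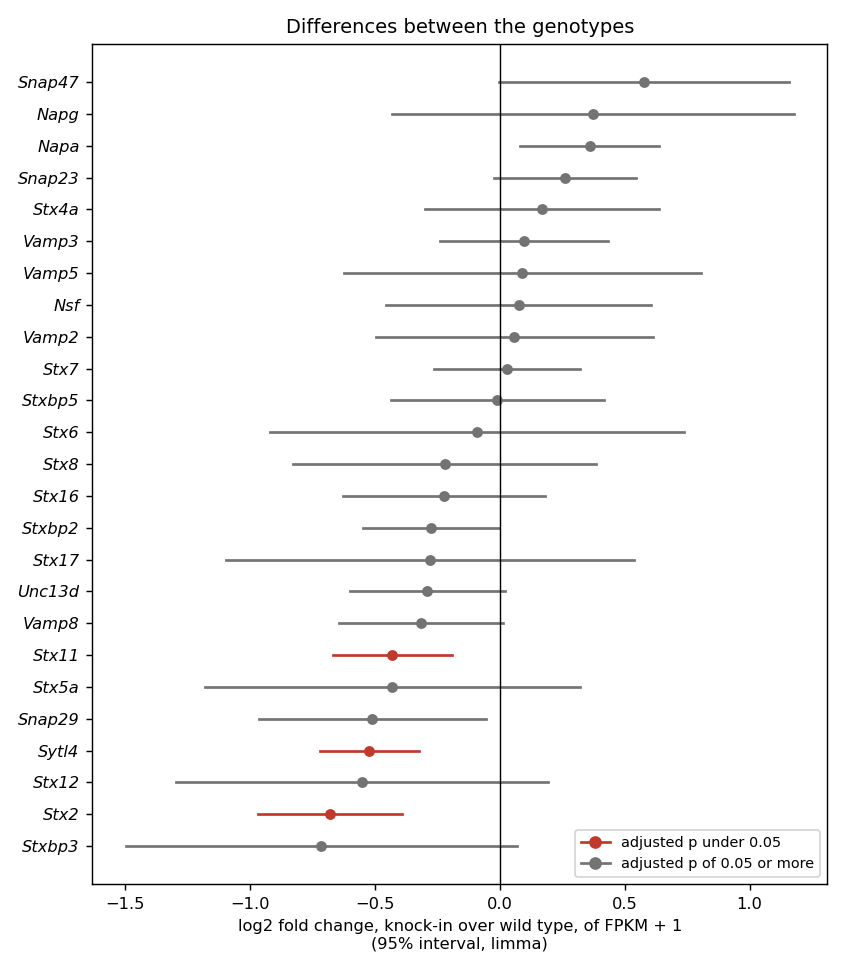
Log2 fold change of FPKM + 1, knock-in over wild type, of the 25 tested members with 95% intervals from limma, with genes past an adjusted p of 0.05 in red. The red intervals of Stx11, Sytl4 and Stx2 lie below 0, and the widest grey intervals belong to genes with a mean under 10 FPKM.

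The other 22 members had means under 1 FPKM and were not tested. Of these, 12 were listed at 0 in all 6 libraries, among them Stx3, Stx19, Snap25, Snap91, Vamp7, Stxbp5l, Stxbp6, Sytl2, Unc13a, Unc13c and Napb. Several of them, such as Snap25, Unc13a and Napb, are neuronal forms, and Snap91 encodes a clathrin adaptor, not a SNARE. The other 10 included Stx18, Unc13b, Vamp4, Stxbp4, Sytl3, Sytl5, Sytl1, Vamp1 and Stx1a, and 1.88 FPKM was the highest single value of the 10. A listed 0 need not mean that the RNA was absent, since a failed estimate is also written as 0. Vamp7 is also the single member without an entry under its symbol in GENCODE M21, and whether annotation bears on its 0 was not tested. Of 30 genes that every cell uses, 0 were listed at 0 in all libraries, but Tbp and Hprt were listed at 0 in some. Just above and below the limit, Stx8 averaged 1.40 FPKM and Stx18 averaged 0.968 FPKM over the 6 libraries.

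Genes of the same process with other symbols were taken from 5 lists. Their counts of calls stand beside 8.36% called in either direction over all tested genes. Of 12 other SNAREs 9 were tested and 0 called, with a median log2 fold change of -0.31. The most abundant was Gosr2, a Golgi Qb-SNARE, at 49.9, 46.9 and 51.8 FPKM in knock-in and 43.0, 43.2 and 38.5 FPKM in wild-type libraries (limma adjusted p = 0.225). Of 6 other SM proteins and their partners 2 were tested and 0 called. The higher of these was Vipas39, a partner of Vps33b in alpha granule formation, at 4.07 to 6.72 FPKM in knock-in and 2.73 to 6.04 FPKM in wild-type libraries. Of 8 Rab27 and docking Rab genes 4 were tested and 0 called. Of 29 calcium sensors, complexins and chaperones 4 were tested and 0 called, and 18 were listed at 0 in all libraries. Syt13, the most abundant, was at 33.0 to 43.5 FPKM in knock-in and 34.7 to 40.6 FPKM in wild-type libraries. The median log2 fold change was 0.30 over the 2 tested SM proteins and partners. It was 0.24 over the 4 tested calcium sensors, complexins and chaperones, and -0.16 over the 4 tested Rab genes. Over all tested genes it was -0.01, and differences between the lists were not tested.

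The exocyst, a multi-subunit tether of vesicles at the plasma membrane, gave the single call outside the SNARE and docking members. Of 9 genes 5 were tested, and 1, Exoc2, was lower, where 3.99% of all tested genes were. The median log2 fold change of the 5 was -0.16. Exoc2, for the subunit Sec5, measured 1.34, 1.26 and 1.39 FPKM in knock-in libraries, against 3.91, 2.92 and 3.90 FPKM in wild-type libraries. The groups did not overlap, and the gene passed at a log2 fold change of -0.97 (SE 0.23, limma adjusted p = 0.0373). The call was lost without any 1 of the 6 libraries and with no filter. Exoc6, the most abundant subunit gene, was at 48.2 to 48.7 FPKM in knock-in and 48.0 to 61.6 FPKM in wild-type libraries (adjusted p = 0.5).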

How the data were processed

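Values are FPKM per gene symbol, as deposited in 1 table for each of 6 libraries, with 24346 symbols. TopHat2 2.1.1 with Bowtie2 2.2.8, Cuffdiff 2.2.1 and SAMtools 0.1.18 are named, beside build mm10, per the submitters' processing notes. Their settings and the gene annotation are not given in the sources used here. Per the labels' protocols, SMART-Seq HT and Nextera XT kits were used, which do not mark strand.

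Genes with a mean of at least 1 FPKM were tested in limma 3.58.1 (R 4.3.3) after log2(FPKM + 1), with genotype as the single term, a variance trend and Benjamini-Hochberg adjustment over all 4859 genes. Log2 fold changes keep that scale, which understates the change of low genes. Intervals are 95% and not adjusted. No library was rescaled. Positions are GRCm38 from GENCODE M21, which holds 46 of the 47 symbols, all but Vamp7. Members and lists were chosen with earlier results of these data known, and every tested member is named, while some untested members are not reported here; of the other lists, the most abundant gene and every called gene are named. Other scalings, filters, a replicate block and left-out libraries were tried, with the genes tested held fixed except where the filter itself changed. Removal of the length trend was also tried, over the 4694 tested genes with a length.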

Additional observations from a re-analysis of the deposited data

How the results depend on the processing

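Over all genes, 212 were called higher and 194 lower. These became 49 and 58 with no filter, 0 and 0 without the variance trend in limma (1197 at an unadjusted p under 0.05), and 345 and 333 without library 1 of both genotypes. Leaving out 1 library gave 0 to 296 higher and 0 to 293 lower, with 0 without knock-in library 3 (1002 unadjusted). No scaling moved the median log2 fold change of all genes by over 0.1. The 3 members called lower became 0 without the variance trend and 0 to 3 with 1 library left out, and 1 member was called higher without library 1 of both genotypes. With a replicate block Stx2 and Sytl4 passed and Stx11 did not (adjusted p = 0.0679), and 166 genes were higher and 140 lower. Same-numbered libraries deviated together with correlations of 0.158, 0.0235 and 0.141, and 5 of 6 libraries correlated best with their own number, a hint from the data and not the design. The median log2 fold change of the members was -0.056 with no filter, 0.010 over those with a mean of at least 5 FPKM, and -0.24 to -0.12 with libraries left out. With a pseudocount of 0.1, 1 member, Stxbp3, was 2-fold apart. The exocyst call became 0 with no filter, at a mean of at least 5 FPKM (where Exoc2 is not tested), without the variance trend, with the block and with any 1 library left out, and 0 to 2 calcium sensor genes were higher with libraries left out. Members that were not called changed sign with libraries left out, over ranges of -0.12 to 0.25 for Nsf, -0.60 to 0.17 for Stx17, -0.023 to 0.29 for Stx4a, -0.58 to 0.22 for Stx6, -0.070 to 0.19 for Stx7, -0.18 to 0.068 for Stxbp5, -0.18 to 0.21 for Vamp2, -0.035 to 0.26 for Vamp3 and -0.12 to 0.40 for Vamp5. Uncalled estimates that kept their sign ran over -0.84 to -0.30 for Stx12, -0.65 to -0.16 for Stx5a and 0.051 to 0.78 for Napg with 1 library left out, and Stxbp3 had -1.33 with a pseudocount of 0.1. Stx7 had -0.023 after scaling without erythroid and top genes and -0.0016 with quantile normalization, and Stxbp5 0.024 with quantile normalization and 0.045 with the length trend removed, an alternative added after the data were seen. The cause of these shifts was not tested. Low levels limit precision, with a median SE of 0.32 over the members under 10 FPKM and 0.13 over the others.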
